A study of Homo sapiens with 8 samples.

Results

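The genes described here are the numbered long intergenic noncoding RNAs, whose symbols are LINC followed by digits only, in RNA from P-bodies and from the cytosol of 2 human acute myeloid leukaemia lines. Members were selected on abundance: raw counts had to sum to at least 200 over all 8 libraries. This rule gave 89 genes, of which 88 stood on a single row of the count tables and could be tested, out of 2132 single-row LINC symbols and 60196 single-row symbols in all. LINC02340 with 206 counts and LINC00653 with 209 lay just inside the minimum, and LINC00265 with 193 and another symbol with 195 just outside it. Below it, 282 LINC symbols had at least 20 counts, 1353 had 1 to 19 and 409 had none.

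The line HEL derives from an erythroleukaemia, and MOLM-13 is monocytic in character. Each line gave 2 P-body libraries and 2 cytosolic libraries, and no treatment or genetic change is named for any group. All cells grew in RPMI medium with serum, and each group comes from 1 line, so a difference between lines is a difference between these 2 lines only. The labels name no method of P-body isolation. The labels do not say that replicates came from separate cultures, so p-values measure the spread between libraries, which may be technical. The label of the lines held in the sums of their markers, given in CPM, that is TMM-scaled counts relative to library size. In all, 11 erythroid and megakaryocytic genes summed to 1444 to 2469 CPM in HEL libraries and 26.8 to 34.7 in MOLM-13. The 11 myeloid genes summed to 102 to 122 in HEL and 1509 to 1757 in MOLM-13. Within these lists only MEIS1, a myeloid gene, went the other way, with a mean of 59.4 CPM in HEL and 34.7 in MOLM-13. CD33 (46.0 and 73.0) and EPOR (44.4 and 28.4) differed less than most.

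Long intergenic noncoding RNAs are transcribed by RNA polymerase II, mostly spliced and polyadenylated, and lie between protein-coding genes. Many are expressed in few cell types and at lower levels than messenger RNAs, and some stay in the nucleus while others reach the cytoplasm. P-bodies, granules in the cytoplasm built from RNA-binding proteins and RNA, store transcripts that are not being translated. LINC symbols are numbers given by the nomenclature committee and carry no function by themselves. For most members no role is described with certainty, so they are ordered below by line and by direction.

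In GENCODE 29 on GRCh38, 63 of the 88 members were typed as lincRNA, 8 as processed transcript, 6 as transcribed unprocessed pseudogene, 3 as antisense, 2 as sense intronic, 2 as bidirectional promoter RNA, 2 as protein coding and 1 as unitary pseudogene. LINC00653 had a position only in RefSeq. Members lay on 23 chromosomes. The span of 14 members overlapped that of a coding gene and 9 overlapped a coding exon, among them LINC00294 with CSTF3 and LINC01089 with RHOF. Without a known strand setting, reads of such members and their partners cannot be told apart. For the 9 members that overlapped a coding gene on the same strand, a known strand would not separate shared reads either. The members typed as pseudogenes may share reads with near-identical copies.

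The sequences that follow are the middle 120 bases of the GENCODE 29 transcript of 8 members, read 5′ to 3′ from the reference. They are shown to let base composition be seen beside the direction of change. Capitals mark G and C. The first 3 were taken as those of the 6 members higher in both lines with the largest change in the line where it was smaller, the next 3 likewise from the 4 lower in both. The first 3, LINC01963 (chr2:216217045-216220192, plus strand), LINC00641 (chr14:21200079-21206900, minus strand) and LINC00662 (chr19:27684580-27793940, minus strand), were higher in P-bodies of both lines. The next 3, LINC02604 (chr7:66902857-66906297, plus strand), LINC00205 (chr21:45288050-45297806, plus strand) and LINC00623 (chr1:120913275-121009291, plus strand), were lower in both. LINC02228 (chr5:25087450-25190956, minus strand) and LINC01934 (chr2:181086076-181409321, plus strand) were higher in HEL and too low for a test in MOLM-13.
LINC01963: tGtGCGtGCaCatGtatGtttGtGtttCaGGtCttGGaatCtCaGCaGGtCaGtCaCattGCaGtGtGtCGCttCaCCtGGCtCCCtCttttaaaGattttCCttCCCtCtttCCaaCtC
LINC00641: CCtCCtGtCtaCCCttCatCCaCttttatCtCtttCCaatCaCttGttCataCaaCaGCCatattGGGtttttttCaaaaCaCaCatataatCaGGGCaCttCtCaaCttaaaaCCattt
LINC00662: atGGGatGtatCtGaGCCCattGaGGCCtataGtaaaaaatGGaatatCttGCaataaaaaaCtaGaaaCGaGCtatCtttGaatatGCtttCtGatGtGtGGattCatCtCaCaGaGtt
LINC02604: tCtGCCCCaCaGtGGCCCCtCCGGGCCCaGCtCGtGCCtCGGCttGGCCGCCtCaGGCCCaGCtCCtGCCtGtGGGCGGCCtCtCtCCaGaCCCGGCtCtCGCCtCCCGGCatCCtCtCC
LINC00205: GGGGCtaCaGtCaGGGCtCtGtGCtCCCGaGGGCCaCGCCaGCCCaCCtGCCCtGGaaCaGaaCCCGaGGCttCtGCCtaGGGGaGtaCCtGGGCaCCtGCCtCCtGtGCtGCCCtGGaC
LINC00623: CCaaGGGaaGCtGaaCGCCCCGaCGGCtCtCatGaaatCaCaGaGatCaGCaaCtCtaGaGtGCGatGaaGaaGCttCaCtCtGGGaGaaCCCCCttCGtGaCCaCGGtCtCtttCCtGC
LINC02228: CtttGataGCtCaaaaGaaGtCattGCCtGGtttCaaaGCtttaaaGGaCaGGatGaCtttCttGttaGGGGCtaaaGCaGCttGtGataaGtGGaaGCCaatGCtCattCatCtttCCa
LINC01934: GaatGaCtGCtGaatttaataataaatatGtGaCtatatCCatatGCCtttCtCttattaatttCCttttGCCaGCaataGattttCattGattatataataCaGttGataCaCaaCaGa

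The G and C share of the windows of LINC01963, LINC00641 and LINC00662 was 46.7%, 36.7% and 35.8%. It was 74.2%, 68.3% and 55.0% for LINC02604, LINC00205 and LINC00623. Their whole transcripts were closer together, at 44.7%, 41.6% and 35.9% for the first 3 and 61.8%, 54.3% and 56.7% for the next 3. The members of both groups that are not shown overlapped: LINC00630, LINC00674 and LINC01881, which rose in both lines, had transcripts of 41.2%, 43.5% and 46.1%, and LINC00899, which fell in both, had 46.0%. LINC02228 and LINC01934 had 42.6% and 38.3%.

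The first comparison asked which members were held at higher or lower levels in P-bodies than in the cytosol of HEL. Of 86 members tested, 19 rose and 13 fell in P-bodies, and 54 did not pass the test (edgeR quasi-likelihood test, Benjamini-Hochberg adjusted p below 0.05). Over all 14772 tested genes 27.5% were higher and 27.1% lower. The members' shares were 22.1% and 15.1%, so calls were not more frequent among LINC RNAs than among genes at large. Their median log2 change of -0.06 was the same to 2 decimals as that of all genes, -0.06. A change of at least 1 on the log2 scale was fitted for 8 members, and a change of -1 or lower for 2. The 2 P-body libraries lay above both cytosolic libraries for 28 members and below both for 31, where 35.3% and 41.1% of all genes did so.

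LINC02228 had the largest HEL change. The P-body libraries held 23.7 and 24.5 CPM and the cytosolic libraries 4.41 and 3.46, from 378, 376, 65 and 60 counts. The log2 change was 2.62 ± 0.17 (SE, n = 2 against 2; edgeR adjusted p = 4.3e-09). The groups lay far apart, and the gene, which sits 442472 bases from its nearest coding gene, CDH10, had no count in any MOLM-13 library.

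LINC01684 had the highest CPM of any member in HEL. It stood at 200 and 194 CPM in P-bodies against 71.8 and 64.0 in the cytosol, a log2 change of 1.54 ± 0.08 (SE; edgeR adjusted p = 9.7e-10). LINC02772 had the next highest CPM and stood at 158 and 148 CPM against 75.8 and 73.6, a log2 change of 1.04 ± 0.08 (SE; edgeR adjusted p = 4.8e-08). Per kilobase of transcript the order reversed, with a mean level of 181 CPM per kb for LINC02772 and 45.5 for LINC01684. LINC01366, at 42.2 CPM per kb, did not pass the test, with 40.1 and 39.3 CPM in P-bodies against 42.2 and 44.5 in the cytosol (edgeR adjusted p = 0.31).

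LINC01963, a single-exon RNA 10742 bases from XRCC5, held 5.33 and 6.05 CPM in HEL P-bodies and 1.49 and 1.38 in the cytosol, a log2 change of 1.98 ± 0.27 (SE; edgeR adjusted p = 1.8e-05). LINC01934 held 14.9 and 16.3 against 4.96 and 4.90 CPM, a log2 change of 1.66 ± 0.17 (SE; edgeR adjusted p = 6.8e-07). LINC01515 held 48.5 and 46.5 against 22.2 and 15.5 CPM, a log2 change of 1.34 ± 0.14 (SE; edgeR adjusted p = 1.5e-06). In all 3 the lower P-body library exceeded the higher cytosolic one by more than the replicates differed. The other members that rose were LINC01881, LINC02301, LINC00641, LINC01217, LINC01094, LINC01140, LINC02475, LINC00662, LINC01218, LINC00534, LINC00630, LINC00923 and LINC00674, with log2 changes of 1.10 down to 0.38. LINC01217 and LINC01218 both lie within EMCN, 21020 bases apart on the same strand, and rose by 0.87 and 0.65. EMCN itself rose by 0.95 (edgeR adjusted p = 0.00015), and LINC01218 is typed as sense intronic on its strand. A share of their reads from EMCN was not tested.

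LINC02604 fell most in HEL P-bodies, with 1.32 and 0.325 CPM against 2.31 and 1.96 in the cytosol. Its log2 change was -1.35 ± 0.47 (SE; edgeR adjusted p = 0.024), and it rested on 21 and 5 P-body counts against 34 and 34. LINC00653 held 0.690 and 1.17 CPM in P-bodies against 2.04 and 2.02, a log2 change of -1.12 ± 0.38 (SE; edgeR adjusted p = 0.022). These 2 lowest values came from few reads, and each call was lost under 4 of 12 alternative settings.

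LINC01278, whose span overlaps SPIN4 on the same strand, was better covered. It held 5.27 and 4.88 CPM in P-bodies against 11.7 and 8.53, a log2 change of -0.99 ± 0.20 (SE; edgeR adjusted p = 0.00077). SPIN4 itself had a log2 change of -0.63 (edgeR adjusted p = 0.00039), and a share of LINC01278 reads from SPIN4 was not tested. LINC00528 held 3.70 and 4.42 against 7.13 and 7.84 CPM, a log2 change of -0.88 ± 0.21 (SE; edgeR adjusted p = 0.0022). For LINC01278 and LINC00528 the 2 groups did not overlap. LINC00899, LINC00623, LINC00963, LINC00205, LINC01447, LINC01993, LINC01138, LINC01426 and LINC02210 also fell, by log2 changes between -0.86 and -0.35.

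The HEL counts moved with the method: 15 members rose and 3 fell with DESeq2. Over all 14772 genes DESeq2 called 3753 higher and 2708 lower. Library totals as the only scaling lowered the median of all genes from -0.06 to -0.39. This scaling gave 10 members higher and 31 lower, and 2762 and 6761 of all genes. Directions thus hold relative to the bulk of genes and not in amount of RNA.

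The same comparison in MOLM-13 could be made for 56 members. Of these, 11 rose and 15 fell in P-bodies and 30 did not pass the test (edgeR, adjusted p below 0.05). Among all 14089 tested genes 32.4% were higher and 28.5% lower, and the members' shares were 19.6% and 26.8%. The median log2 change of the members was -0.21, against -0.04 for all genes. The P-body libraries lay above both cytosolic libraries for 13 members and below both for 23, where 39.2% and 40.6% of all genes did so.

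LINC00662 had the highest level of any member in MOLM-13, also per length (56.1 CPM per kb). It held 191 and 195 CPM in P-bodies and 81.5 and 88.8 in the cytosol. The log2 change was 1.18 ± 0.06 (SE, n = 2 against 2; edgeR adjusted p = 2.3e-14). LINC01963 held 20.7 and 22.2 against 8.56 and 8.59 CPM, a log2 change of 1.32 ± 0.16 (SE; edgeR adjusted p = 8.1e-08). These were the 2 members with a fitted change of at least 1.

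LINC00294 held 14.1 and 15.2 CPM in P-bodies against 8.41 and 6.66, a log2 change of 0.97 ± 0.18 (SE; edgeR adjusted p = 6.4e-05). Its exons overlap the coding gene CSTF3, and a share of its reads from that gene was not tested. LINC00471 held 7.43 and 6.17 against 3.39 and 3.63 CPM, a log2 change of 0.95 ± 0.25 (SE; edgeR adjusted p = 0.0021). LINC00641 held 5.73 and 5.45 against 2.21 and 3.51 CPM, a log2 change of 0.94 ± 0.28 (SE; edgeR adjusted p = 0.0058). All 3 had P-body libraries above both cytosolic ones. LINC00641 lost this call under 4 of 12 alternatives, with a log2 change as low as 0.23 (adjusted p up to 0.53), and its HEL call under 3. LINC00630, LINC00674, LINC01138, LINC01572, LINC01881 and LINC00667 rose by log2 changes of 0.89 down to 0.40.

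LINC00926, known as an RNA of B lymphocytes, had the second highest level in MOLM-13 (43.9 CPM per kb) and fell in P-bodies, with 80.2 and 80.04 CPM against 140 and 144 in the cytosol. The log2 change was -0.83 ± 0.06 (SE; edgeR adjusted p = 3.9e-11). A set of 5 lymphoid markers summed to 33.5 to 34.3 CPM in MOLM-13 libraries and 0.795 to 2.01 in HEL. Nearly all of this was CD3D, with a mean of 33.5 CPM, while CD3E had no count in MOLM-13, and MS4A1, CD79A and PAX5 had 3, 7 and 5 counts over its 4 libraries. The part of lymphoid markers in this result was not tested.

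LINC02604 fell furthest, with 4.14 and 5.10 CPM in P-bodies against 10.03 and 12.6, a log2 change of -1.31 ± 0.22 (SE; edgeR adjusted p = 1.1e-05). LINC01089, also called LIMT, held 4.03 and 4.62 against 12.0 and 9.56 CPM, a log2 change of -1.30 ± 0.22 (SE; edgeR adjusted p = 1.5e-05). LINC00205 held 8.49 and 7.94 against 19.03 and 14.5 CPM, a log2 change of -1.01 ± 0.18 (SE; edgeR adjusted p = 2.8e-05). In these 3 both cytosolic libraries lay above both P-body libraries.

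LINC00534 held 2.12 and 0.830 CPM in MOLM-13 P-bodies against 3.54 and 2.78 in the cytosol, a log2 change of -1.05 ± 0.39 (SE; edgeR adjusted p = 0.024), from 20 and 7 against 24 and 23 counts. The remaining members that fell were LINC01355, LINC02916, LINC00174, LINC01006, LINC00623, LINC01569, LINC00899, LINC00869, LINC01410 and LINC00467, by log2 changes between -0.80 and -0.31. DESeq2 called 7 members higher and 7 lower, and 3852 and 2623 of all 14089 genes. Library totals gave 3 members higher and 32 lower, and 2903 and 7154 of all genes, with a median over all genes of -0.47. In the fit of all 8 libraries 7 members were higher and 15 lower, against 3883 and 4383 of all 17477 genes.

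Presence differed between the lines: 54 members were tested in both, 32 in HEL only and 2, LINC01006 and LINC01291, in MOLM-13 only. Of all genes, 14772 were tested in HEL, 14089 in MOLM-13 and 11984 in both. HEL libraries held 65.3% of all counts, and the summed minimum favours RNAs of HEL, so the split is a description only. Of the 54, 43 had the same sign of change in both lines, 14 positive and 29 negative. Across these 54 genes the log2 changes had a Pearson r of 0.61 and a Spearman rho of 0.54, given as a description, since genes of 1 library share its depth and composition. Among all 11984 genes tested in both lines 74.8% had the same sign, against 79.6% of the members. Calls in both lines were made for 12 members, or 22.2%, against 42.6% of those genes. LINC01963, LINC00641, LINC00662, LINC00630, LINC00674 and LINC01881 rose in both, and LINC02604, LINC00205, LINC00623 and LINC00899 fell in both. The other 2, or 3.70%, were called in opposite directions, as were 3.30% of all genes tested in both lines.

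**Figure D1:**
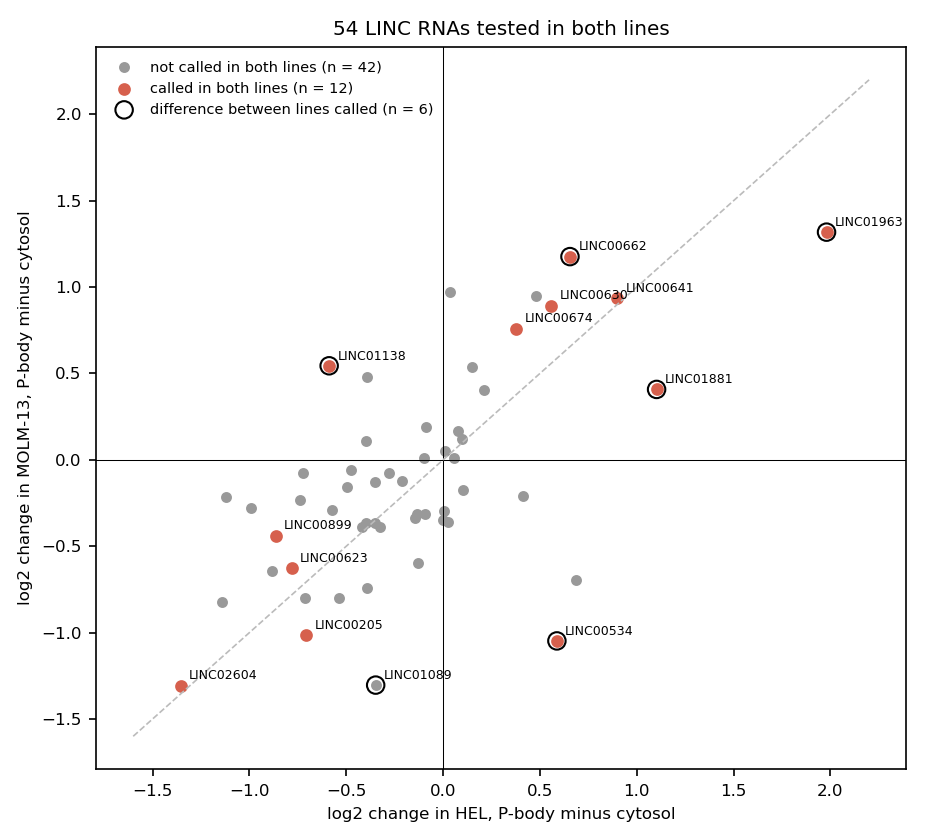
Log2 change from cytosol to P-body in HEL (x axis) against MOLM-13 (y axis) for the 54 LINC RNAs tested in both lines. Red points were called in both lines, rings mark a called difference between lines, and the dashed line is equality. LINC01138 and LINC00534 sit in the quadrants of opposite sign.

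Among the members that fell in both lines, LINC00623 held 3.76 and 2.99 CPM in HEL P-bodies against 6.79 and 4.90, and 23.6 and 21.3 in MOLM-13 P-bodies against 34.5 and 35.0. Its log2 changes were -0.78 ± 0.25 and -0.63 ± 0.11 (SE; edgeR adjusted p = 0.016 and 3.4e-05). LINC00205 stood in HEL at 4.01 and 3.32 against 5.57 and 6.40 CPM, a log2 change of -0.71 ± 0.23 (SE; edgeR adjusted p = 0.016). The groups of both RNAs did not overlap in either line, although LINC00623 and LINC00205 each lost the HEL call under 4 of 12 alternatives.

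LINC00899 held 1.88 and 2.93 against 3.87 and 4.84 CPM in HEL, and 11.04 and 11.03 against 14.9 and 15.0 in MOLM-13, with log2 changes of -0.86 ± 0.29 and -0.44 ± 0.16 (SE; edgeR adjusted p = 0.019 and 0.022). LINC00630 held 8.97 and 6.96 against 4.41 and 6.34 CPM in HEL, and 6.58 and 6.28 against 3.69 and 3.27 in MOLM-13. Its log2 changes were 0.56 ± 0.22 and 0.89 ± 0.25 (SE; edgeR adjusted p = 0.044 and 0.0036). LINC00899 lost its MOLM-13 call under 6 of 12 alternatives and its HEL call under 3. LINC00630 lost its HEL call under 4, with a further change of sign, and its MOLM-13 call under 3.

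**Figure D2:**
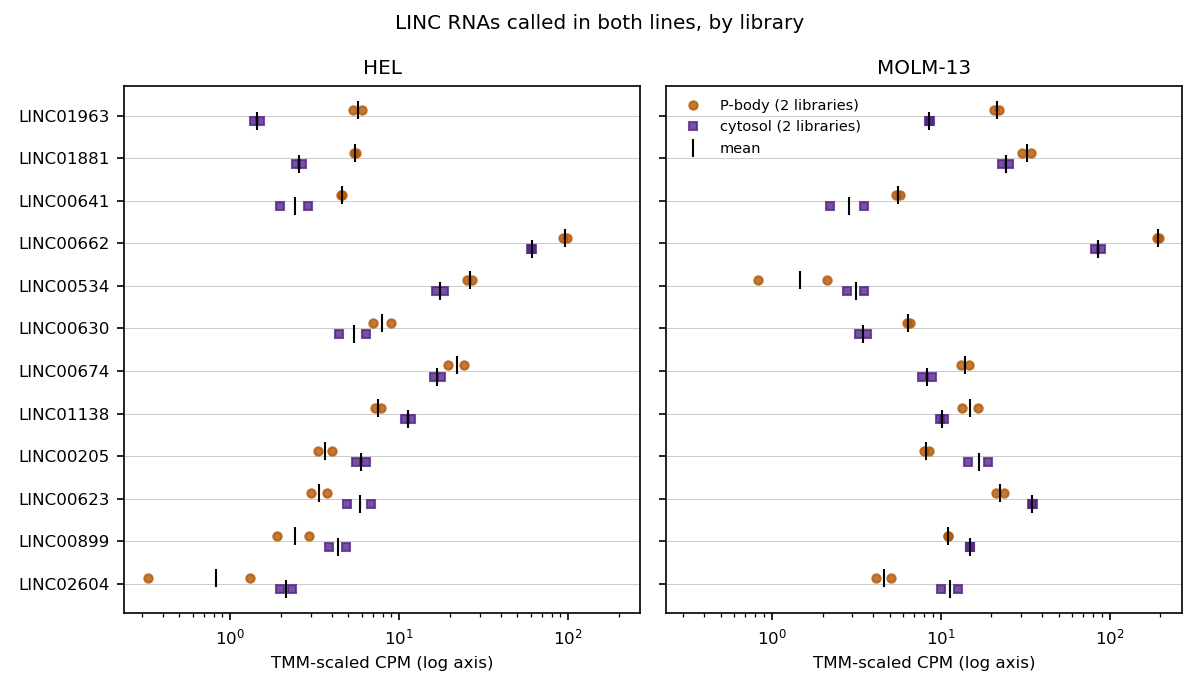
TMM-scaled CPM (log axis) of the 12 LINC RNAs called in both lines, in each P-body library (circles) and cytosolic library (squares), with group means as ticks. The 12 were picked by their calls, and no called member had overlapping groups, where 35.3% of all genes lay above and 41.1% below without overlap in HEL, and 39.2% and 40.6% in MOLM-13. LINC00534 and LINC01138 swap order between HEL and MOLM-13.

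A test of the difference itself, the MOLM-13 change minus the HEL change in a fit of all 8 libraries, called 2 higher and 4 lower of the 54 members tested in both lines, where 12.9% and 17.6% of all 11984 such genes were called. Among the 34 members that reached the test through 1 line, some with no count in the other, 2 more were lower, and over all 17477 genes of this fit 9.15% were higher and 13% lower. LINC01138 had 7.78 and 7.22 CPM in HEL P-bodies against 11.7 and 10.8 in the cytosol, and 13.4 and 16.6 against 9.89 and 10.5 in MOLM-13. It thus fell by 0.59 in HEL and rose by 0.54 in MOLM-13 on the log2 scale, each in the fit of its line. The difference in the fit of all 8 libraries was 0.94 ± 0.24 (SE; edgeR adjusted p = 0.0066). That fit has its own scaling, so its differences need not equal the gap between changes fitted in each line. The median difference over all genes was -0.11, and 0.19 without HEL P-body replicate 1, so small differences depend on the libraries and scaling used. LINC00534 had 27.0 and 25.2 CPM against 18.3 and 16.5 in HEL, where it rose by 0.59, and the reverse order in MOLM-13. Its difference was -1.83 ± 0.39 (SE; edgeR adjusted p = 0.0016). The differences of LINC01138 and LINC00534 were called under all 13 alternatives, although LINC01138 lost the MOLM-13 call under 4 of 12 and LINC00534 under 3 of 12.

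LINC00662 rose in both lines, from 61.5 and 60.1 to 98.0 and 93.6 CPM in HEL, with a difference of 0.33 ± 0.11 (SE; edgeR adjusted p = 0.032). LINC01881 rose from 2.44 and 2.65 to 5.58 and 5.40 CPM in HEL and from 23.0 and 25.5 to 34.2 and 30.4 in MOLM-13, with a difference of -0.88 ± 0.25 (SE; edgeR adjusted p = 0.012). LINC01934 and LINC01515 had differences of -2.54 ± 0.62 and -2.60 ± 0.84 (SE; edgeR adjusted p = 0.0045 and 0.029), but they were too low for a test within MOLM-13, where no library held more than 10 and 6 counts. The calls of LINC01963, -0.85 ± 0.30, and LINC01089, -1.15 ± 0.40 (SE; edgeR adjusted p = 0.044 and 0.043), were lost under 13 and 12 of 13 alternatives, and those of LINC00662, LINC01881, LINC01515 and LINC01934 under 4, 6, 5 and 1.

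Between lines, 32 of 88 members were higher and 42 lower in the cytosol of MOLM-13 than of HEL (edgeR, adjusted p below 0.05), where 44.2% and 40.1% of all genes were, 84.4% in all. In P-bodies the counts were again 32 and 42, where 41% and 40.8% of all genes were called, 81.8% in all. Of these, 30 were higher and 41 lower in both fractions. These counts are no support for a preference of either line: HEL libraries held 65.3% of all counts, so a summed minimum favours RNAs of HEL, and a gene that passed through 1 line had to differ. In such bulk samples, fewer cells with a transcript and less of it per cell cannot be told apart. In HEL alone 67 members reached 200 counts, and in MOLM-13 alone 35 did.

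LINC00839 had 1322 counts in HEL cytosol and none in MOLM-13 cytosol, at least 191-fold higher in HEL against a floor of 3 counts over the group. LINC01218, LINC01993 and LINC01806 had 316, 268 and 223 counts against none, at least 45.6-fold, 38.7-fold and 32.2-fold higher. LINC02228, LINC01217, LINC01218 and LINC01806 had no count in any MOLM-13 library. LINC02772 had 2392 cytosolic counts in HEL and 4 in MOLM-13, a ratio of 259 (95% exact interval 101 to 950, counting error only).

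In the other direction, LINC00926 had 2138 cytosolic counts in MOLM-13 and 23 in HEL, a ratio of 215 (95% exact interval 143 to 340). LINC01291 had 146 against 1, a ratio of 337 (59.6 to 13419). LINC01006 had 190 against 13, a ratio of 33.8 (19.3 to 64.6), and LINC02422 had 157 against 22, a ratio of 16.5 (10.5 to 27.1). All 4 were also called higher in MOLM-13 P-bodies. LINC00342 and LINC00667 came next by CPM in MOLM-13 among the 88 tested members. The untested LINC02256, which stands on 2 rows, held more, at 67.0 to 73.7 CPM. In the 2 P-body and 2 cytosolic libraries LINC00342 held 37.6, 33.6, 38.2 and 36.2 CPM. LINC00667 held 33.1, 33.1, 23.3 and 26.5 CPM, so of these 2 only LINC00667 rose, by 0.40 (edgeR adjusted p = 0.0034).

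**Figure D3:**
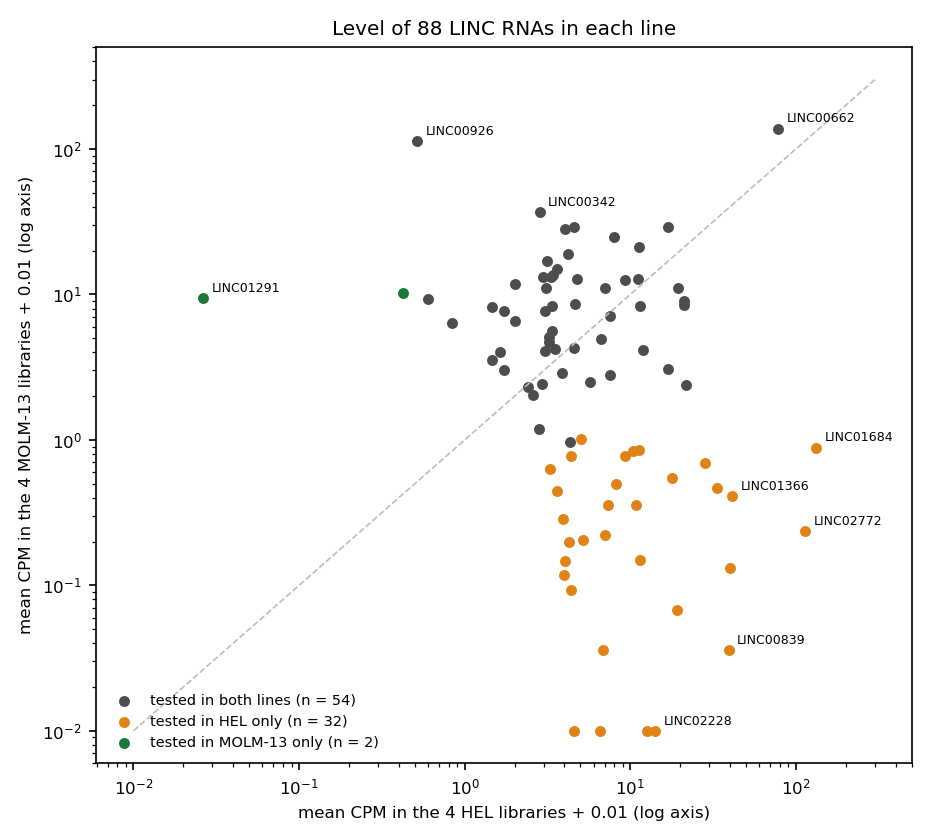
Mean CPM of 88 LINC RNAs over the 4 HEL libraries (x axis) and the 4 MOLM-13 libraries (y axis), both log axes with 0.01 added. Colour gives the lines in which a member was tested, and the dashed line is equality. The 32 members tested in HEL only lie along the bottom, at no more than 1.00 CPM in MOLM-13, and LINC00926 and LINC01291 stand at the upper left.

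The 32 members tested in HEL only had mean levels of 3.27 to 132 CPM in HEL and at most 1.00 in MOLM-13. In HEL P-bodies 12 of them rose, 3 fell and 17 did not pass the test, with a median log2 change of 0.21, where 27.5% of all genes were higher and 27.1% lower. The 54 tested in both lines had a HEL median of -0.18, with 7 higher and 10 lower. This difference between the subsets is a description and was not tested.

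The median G and C content of members that rose in P-bodies was below that of members that fell, with overlapping ranges. In HEL the median was 42.6% (35.9% to 46.1%) for the 19 that rose, 47.5% for the 54 without a call, and 50.7% (46.0% to 61.8%) for the 12 of 13 that fell and have a transcript. In MOLM-13 it was 44.7% (35.9% to 50.6%) for the 11 that rose and 53.0% (36.0% to 61.8%) for the 15 that fell. Across members the Spearman correlation of change with G and C content was -0.53 in HEL (85 genes) and -0.34 in MOLM-13 (55 genes). Across all tested genes it was -0.62 in both lines, so the same direction held over genes at large.

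**Figure D4:**
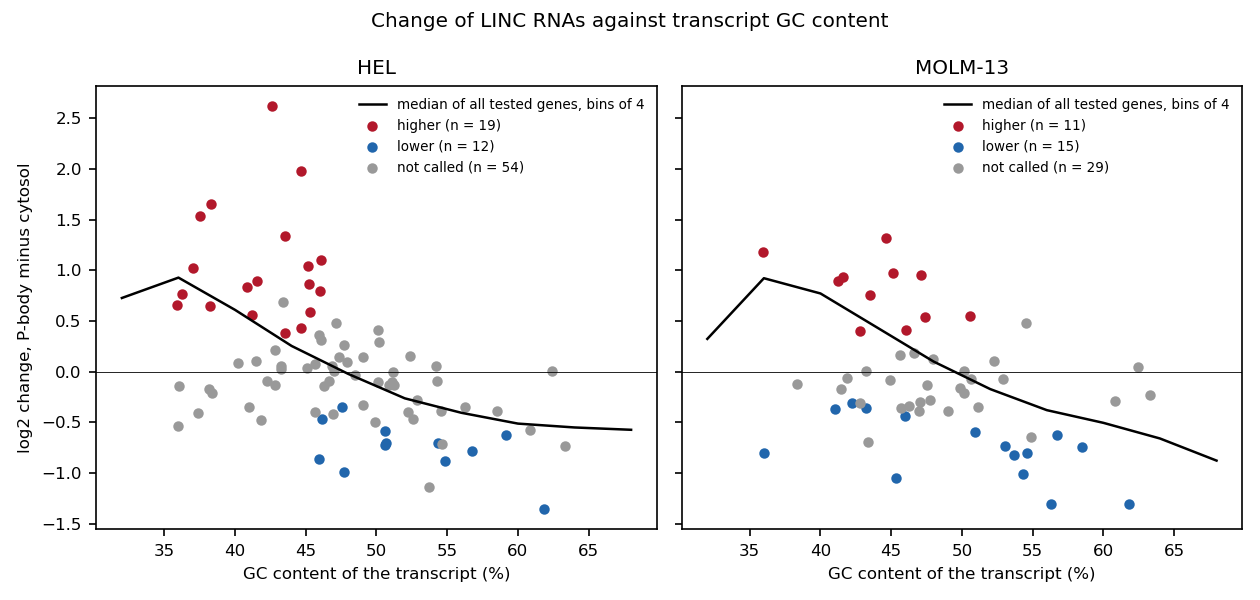
Log2 change from cytosol to P-body against the G and C content of the transcript (%) for LINC RNAs in HEL (left) and MOLM-13 (right), coloured by call. The black line is the median of all tested genes in bins 4 percentage points wide. All 19 members that rose in HEL lie at 46.1% or below, and the medians of all genes fall with G and C content over most of the range.

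With a trend on G and C content and length removed from each library, 11 of 86 members were higher and 19 lower in HEL. Of these, 9 and 8 were called in the same direction before. All 14772 genes gave 3501 higher and 3514 lower, with medians of -0.07 for members and -0.03 for all genes. In MOLM-13 it gave 7 higher and 22 lower of 56, with 6 and 13 shared. All 14089 genes gave 3635 higher and 3253 lower, with medians of -0.31 for members and -0.02 for all genes. LINC00662 turned in HEL from 0.66 to -0.19 (edgeR adjusted p = 0.045), and LINC00667 turned in MOLM-13 from 0.40 to -0.21. Length did not separate the calls as plainly, with medians of 2186 and 3188 bases for members that rose and fell in HEL.

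Other noncoding RNAs, from lists chosen with earlier results known, give a setting for these values. Of 202 antisense RNAs 20 rose and 44 fell in HEL, and of 184 in MOLM-13 24 rose and 52 fell. Of 43 snoRNA and microRNA host genes 17 rose (39.5%) and 8 fell (18.6%) in HEL. Of 41 in MOLM-13, 4 rose (9.76%) and 23 fell (56.1%). LINC RNAs with at least 20 counts but below the minimum had 18 higher and 9 lower of 101 tested in HEL, and 8 and 11 of 61 in MOLM-13. Of 8 tested RNAs on a list named nuclear-retained, 1, OIP5-AS1, rose and 3 fell in HEL, and 2 rose and 4 fell in MOLM-13. Whether each stays in the nucleus of these cells was not measured. They did not move alike. NEAT1, the scaffold of paraspeckles in the nucleus, had log2 changes of -1.11 and -0.92 (edgeR adjusted p = 4.8e-06 and 1.2e-12), OIP5-AS1 of 1.10 and 1.39 (edgeR adjusted p = 6.9e-09 and 1.9e-18). MALAT1 had -0.01 in HEL and -0.49 in MOLM-13 (edgeR adjusted p = 0.95 and 9.8e-11).

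Neighbouring coding genes were compared for position. Where the nearest coding gene was tested, the member's change had the same sign for 36 of 62 members in HEL and 19 of 33 in MOLM-13. The share of like signs among other neighbouring genes was not measured. LINC00526 and LINC00667 overlap on opposite strands, as do LINC01116 and LINC01117, and their reads cannot be told apart without strand.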

How the data were processed

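The authors deposited 1 table per line of raw counts for each gene symbol; per the submitters' processing notes STAR, SAMtools 1.12, DESeq2 and GRCh38 were used. Per the labels, a miRNeasy Micro kit gave the RNA and a NEBNext Ultra II kit the libraries. The labels do not state the read counter, the gene annotation or the strandedness. Totals were 13153551 to 18071473 counts per HEL library and 5897625 to 11000536 per MOLM-13 library, of which members took 0.0970% to 0.107% and 0.0671% to 0.0923%. Rows of 112 symbols that stood on several rows were left out of the fits (0.0193% to 0.0477% of counts).

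Counts were fitted with edgeR 4.0.16 in R 4.3.3 (limma 3.58.1): TMM factors, filterByExpr with a smallest count of 10, the quasi-likelihood test and Benjamini-Hochberg adjustment over all tested genes, with calls at 0.05. Each line was fitted alone for P-body against cytosol, and all 8 libraries together for comparisons between lines. Code was tested on simulated data. CPM are TMM-scaled, per line or over 8 libraries for ratios between lines. Standard errors are the log2 change divided by the square root of the F statistic. Replicates differed by more than sampling noise (chi-square per degree of freedom 1.87 to 6.15). The members, lists and tests were chosen with earlier results of these data known. Rankings of members cover the 88 on a single row. Named genes were the 5 largest called changes per line and direction, those called alike in both lines, the 5 lowest p for the difference, the 4 most abundant per line, the 4 largest called cytosolic line differences in each direction and those next to the count minimum; LINC00674 and other members given only within a list of calls complete the counts. Alternatives were DESeq2 1.42.0, other scalings, filters and minimums, the replicate block, a trend on transcript G and C content and length, and leaving out each library. Sets without exon overlap or present in both lines were added after the data were seen. A further lymphoid marker is not reported here.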

Additional observations from a re-analysis of the deposited data

Results flagged for a closer look

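Groups of 2 libraries are too small for a check of single outlying samples. The interaction term in edgeR called a difference between the lines in the P-body change for 8 members, and only the calls of LINC01138 and LINC00534 were made under all 13 alternatives. The call of LINC01963 was lost under 13, of LINC01089 under 12, of LINC01881 under 6, of LINC01515 under 5, of LINC00662 under 4 and of LINC01934 under 1. As the MOLM-13 minus the HEL log2 change, these were 0.33 for LINC00662 and 0.94 for LINC01138, and -2.60 for LINC01515, -1.83 for LINC00534, -0.88 for LINC01881, -0.85 for LINC01963, -2.54 for LINC01934 and -1.15 for LINC01089. The values of LINC01515 and LINC01934 rest on MOLM-13 libraries with few counts, namely 3, 2, 6 and 3 for LINC01515 and 8, 3, 10 and 5 for LINC01934 in the 2 P-body and 2 cytosolic libraries.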

How the results depend on the processing

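Members' changes were less precise than those of most genes: the median standard error of a member's log2 change was 0.23 in HEL and 0.21 in MOLM-13, against 0.14 over all genes in each line. In HEL, 19 higher and 13 lower of 86 became 10 and 31 with library totals. The 19 higher became 11 with the G and C and length trend removed, and the 13 lower became 3 with DESeq2. Among the 54 members present in both lines 7 were higher, and 8 of 48 were lower at a minimum of 500 summed counts. Both sets change the members counted and no call. In MOLM-13, 11 higher and 15 lower of 56 became 3 and 32 with library totals and 7 and 7 with DESeq2. The 11 higher became 7 in the fit of all 8 libraries and with the trend removed. Counts over all genes under these settings are given above with the results of each line. At a minimum of 500, 9 of 31 members were lower. The difference between lines gave 3 lower in place of 6 with no filter and with DESeq2. Over all genes 1594 of 43811 were lower with no filter and 1466 of 17477 with DESeq2. At a minimum of 500 the line contrast gave 19 higher and 25 lower of 48 members in the cytosol and 20 and 24 in P-bodies. Leaving out 1 library at a time gave 14 to 20 higher and 6 to 10 lower in HEL, 9 to 11 higher and 9 to 11 lower in MOLM-13, and 1 to 4 higher and 2 to 5 lower for the difference between lines. Where this leaves 1 library in a group, that library is assumed to vary like the others. Causes of these moves were not tested.

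Values that turned were, in HEL with the trend removed, LINC00662 at -0.19, LINC00630 at -0.012 and LINC01218 at -0.11, and in MOLM-13 LINC00667 at -0.21 with the trend removed and -0.035 with library totals, and LINC01881 at -0.031 with library totals. Of the values of single members under an alternative, 1151 kept direction and call, 111 lost the call and 6 turned. These are for named members with a call, pooled over the P-body changes, the difference between lines and the line contrasts. The line contrasts seldom lost a call, so this total does not measure how well the P-body changes held. With the replicate number as a block, HEL gave 20 higher and 13 lower, MOLM-13 11 and 16, and the difference between lines 2 and 4. Same-numbered libraries did not deviate together (correlation -0.0034 in HEL and -0.013 in MOLM-13). With 2 libraries per group this cannot tell whether they came from the same culture, which the labels do not state.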

Other observations

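LINC02256 meets the count minimum with 2839 summed counts but stands on 2 rows, which were added, and it was not tested. It held 10.3 and 10.4 CPM in HEL P-bodies against 5.91 and 6.86 in the cytosol, a ratio of means of 1.62. In MOLM-13 it held 73.7 and 70.6 against 67.0 and 68.5 CPM, a ratio of 1.06. The P-body libraries lay above both cytosolic libraries in each line.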
